A study of Mus musculus with 6 samples.

Results

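The genes described here encode 41 subunits and partners of chromatin-remodelling and chromatin-modifying complexes, the machinery that the nuclear protein SATB1 is known to bring to DNA or that works beside it. They were taken by name, and a gene was used where the annotation of a probe set held exactly 1 gene symbol equal to a listed name. Where a gene had several probe sets, the one with the highest mean of the 6 arrays stood for it. All 41 listed genes were measured, of 19938 genes named in this way. They comprise 7 genes of ISWI complexes, 11 of NuRD, 12 of BAF, Chd1 and Ino80, 4 corepressor genes, 4 coactivator genes and Pml.

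RNA came from mouse embryonic stem (ES) cells, 3 samples of WT cells, given as control in the labels, and 3 of Satb1-/- cells, numbered 1-1, 1-2 and 2-1 as clones. Both groups had been engineered to hold a HygroTK reporter, which carries hygromycin resistance, in the Oct4 locus. Both were kept with LIF and serum, cultured on irradiated feeders with hygromycin for 3 days, and left to settle so that feeders were reduced before total RNA was prepared. The knockout group thus holds clonal lines, and neither the meaning of the first clone number nor whether the WT samples were separate cultures is given in the labels, so p-values measure only the spread between these samples, which may in part be technical.

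ISWI, NuRD, BAF and INO80 complexes are built around ATP-driven motors that slide, evict or exchange nucleosomes. SATB1 binds A+T-rich DNA at the base of chromatin loops and is known, mainly from thymocytes, to contact ISWI and NuRD subunits, histone acetyltransferases, CtBP1 and PML. In ES cells the BAF form built on Smarca4 and Smarcc1 (esBAF) keeps the self-renewal programme, and NuRD with Mbd3 tempers the same genes so that cells can leave it. All values below are deposited log2 expression values, differences are Satb1-/- minus WT on that log2 scale, and a gene was called at a Benjamini-Hochberg adjusted p under 0.05 in limma over all 19938 genes.

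Satb1 itself read 5.12, 4.99 and 5.31 in WT replicates 1 to 3 and 4.38, 4.47 and 4.57 in clones 1-1, 1-2 and 2-1, so that the groups lay 0.67 apart (-0.67, SE 0.12, limma adjusted p = 0.0220). This call was lost without WT replicate 1 (limma adjusted p = 0.0623) and without any 1 of the Satb1-/- clones. Whether this probe set lies within the deleted part of the gene is not known here. Among all genes 0.923% were called higher and 0.476% lower in Satb1-/- cells, 1.40% in either direction. Of 15 pluripotency markers all lay above the median level, 7 were called higher and none lower. Pou5f1, the Oct4 gene, read 10.13, 10.00 and 10.53 in WT and 9.82, 9.78 and 9.90 in Satb1-/- arrays, a difference of -0.39 without a call (limma adjusted p = 0.309). Of 14 fibroblast genes that stand for the feeder cells, 0 were called (limma, 4 at an unadjusted p under 0.05) and 13 had differences above 0. Their level on an array, as the median over the 14 genes of the deviation from each gene's mean, was -0.22 to -0.06 in WT and -0.01 to 0.30 in Satb1-/- arrays. Of 10 trophectoderm markers 3 were called lower and none higher, the keratin genes Krt8 (-2.72, the lowest difference of all genes), Krt18 (-2.48) and Krt19 (-1.74). Of the 10, 6 had an unadjusted p under 0.05, beside 10.5% of all genes. Without overlap 4 read lower, these 3 and the keratin gene Krt7 (-1.57), and 2 higher, Eomes (0.55) and Tfap2c (0.33), beside 15.1% of all genes. Cdx2 (-0.23), Hand1 (-0.31), Gata3 (-0.16) and Elf5 (0.07) overlapped. The median deviation of those 10 markers was -0.01 to 0.60 in WT and -0.25 to -0.18 in Satb1-/- arrays. Of 10 primitive endoderm markers 1 was called, Lama1 (1.53, higher), and of 9 neural markers 1, Nes (-0.58, lower). WT replicate 3 stood apart on the second principal component (29.4% of the variance). It also held the highest median deviation of the trophectoderm list, 0.60. On chromosome 8 the 570 genes above the median level had a median difference of -0.29, against -0.00 to 0.05 on the 18 chromosomes other than 6, 8 and Y.

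None of the 41 genes was called in either direction by limma, beside 1.40% of all genes and 2.54% of the genes above the median level. The signal of 39 of the 41 probe sets lay above the median signal of all genes, the exceptions being Smarca1 and Smarca2. Probe sets bind with different strength, so this rank shows where on the array's range each was read and is no comparison of expression between genes. Differences ran from -0.67 for Smarca1, the ISWI motor SNF2L, to 0.54 for Kat2b, the acetyltransferase PCAF, with a median of -0.02 beside -0.00 for all genes. At an unadjusted p under 0.05 stood 10 genes (24.4%), against 10.5% of all genes and 16.5% of genes above the median level. In 12 genes (29.3%) the WT and Satb1-/- arrays did not overlap, 7 with the Satb1-/- arrays higher and 5 with them lower. The background was 15.1% of all genes, 8.18% higher and 6.97% lower, and among genes above the median level 20.0%, 11.7% higher and 8.27% lower. Counts of separated genes moved with the scaling, to 4 higher and 4 lower after centring each array on its median (19.5% of the 41 genes, beside 14.4% of all genes and 16.7% of those above the median level). After a second quantile normalization they were 8 and 9 (41.5%, beside 17.2% and 22.3%). With 1 array fewer, groups separate more often in all genes as well, and without WT replicate 3 the counts were 12 higher and 8 lower (48.8%, beside 32.1% and 38.4%).

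The 95% interval of the difference lay within a 1.5-fold change either way for 36 of the 41 genes. It lay within a 2-fold change for 40, all but Smarca1. The same held for 17416 and 19625 of all 19938 genes, and for 8003 and 9691 of the 9969 genes above the median level. Fits with array weights called 2 genes, Kat2b and Sin3b, and leaving out single arrays called Kat2b or Smarca1, as given with each gene. Of all genes, array weights called 373 higher and 235 lower, against 184 and 95 in the main fit. Leaving out single arrays called 74 to 356 of all genes higher and 19 to 124 lower.

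**Figure D1:**
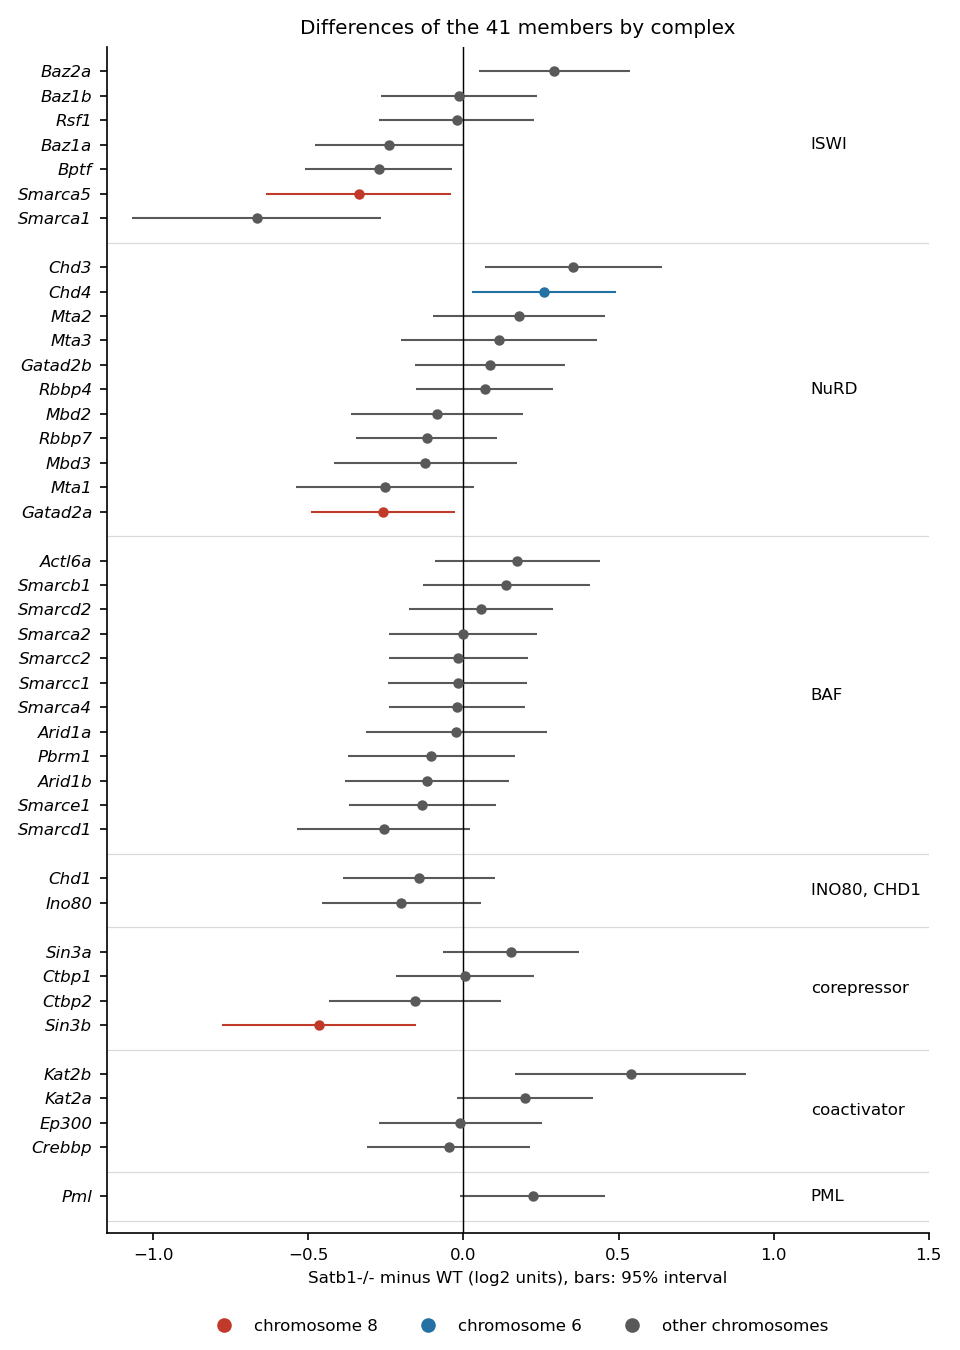
Difference between Satb1-/- and WT (log2, horizontal axis) for each of the 41 genes, grouped by complex; points are differences of group means and bars 95% intervals from limma, in red for chromosome 8 and blue for chromosome 6. Values run from -0.67 for Smarca1 to 0.54 for Kat2b, and the 12 BAF genes keep between -0.26 and 0.17.

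**Figure D2:**
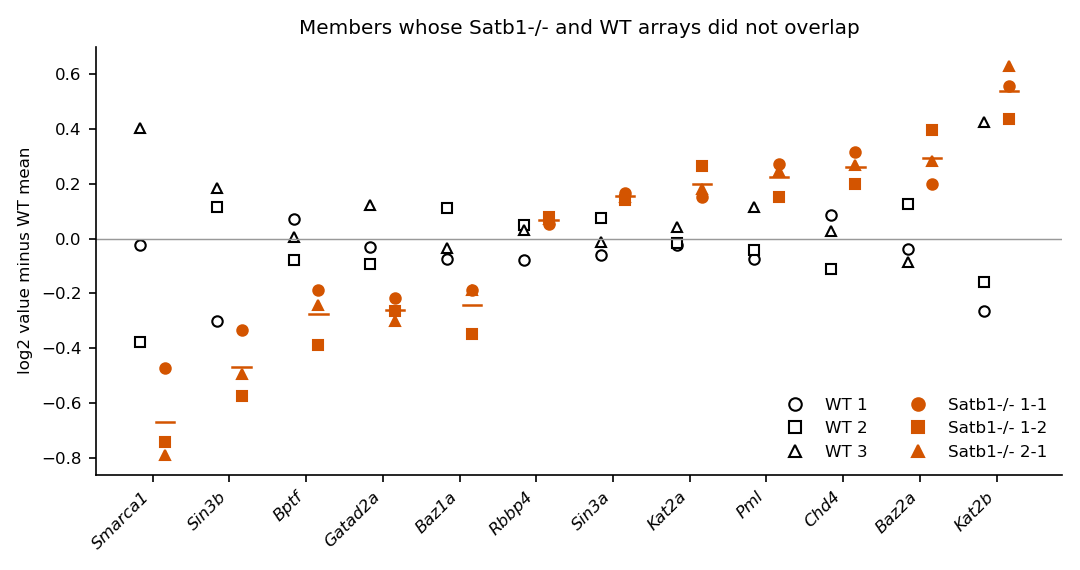
Log2 value of each array minus the gene's WT mean (vertical axis) for the 12 genes whose groups did not overlap (horizontal axis), with open symbols for WT, filled symbols for Satb1-/- arrays and a line at the Satb1-/- mean. In 5 genes, from Smarca1 to Baz1a, the Satb1-/- arrays lie lower and in 7, from Rbbp4 to Kat2b, higher.

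The promoters of Kat2b, Smarca1 and Sin3b, the genes with the 3 largest differences, are shown because SATB1 favours A+T-rich stretches in which 1 strand lacks G or lacks C. They cover the 250 bases before the RefSeq start on GRCm38.p6, written on the gene's strand, and capitals mark the longest run with no G or no C. The Kat2b window is chr17:53566721-53566970 (plus strand), Smarca1 chrX:47892614-47892863 (minus strand) and Sin3b chr8:72723020-72723269 (plus strand).
Kat2b: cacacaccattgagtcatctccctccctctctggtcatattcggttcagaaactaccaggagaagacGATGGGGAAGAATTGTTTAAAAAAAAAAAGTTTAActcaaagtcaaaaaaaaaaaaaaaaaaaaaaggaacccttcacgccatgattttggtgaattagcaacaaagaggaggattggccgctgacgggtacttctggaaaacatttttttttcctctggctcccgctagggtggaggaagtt
Smarca1: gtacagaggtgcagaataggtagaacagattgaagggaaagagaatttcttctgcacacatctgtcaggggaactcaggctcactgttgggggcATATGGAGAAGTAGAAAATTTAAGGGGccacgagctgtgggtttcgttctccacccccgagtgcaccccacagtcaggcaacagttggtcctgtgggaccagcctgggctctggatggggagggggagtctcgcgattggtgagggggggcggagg
Sin3b: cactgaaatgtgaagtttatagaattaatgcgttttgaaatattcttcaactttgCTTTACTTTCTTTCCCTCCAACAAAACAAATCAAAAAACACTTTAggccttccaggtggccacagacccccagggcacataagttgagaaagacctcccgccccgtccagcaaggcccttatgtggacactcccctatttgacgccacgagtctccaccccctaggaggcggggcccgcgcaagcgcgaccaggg
The Kat2b window is 59.2% A+T, the highest of the members' windows, with a run of 35 bases that has no C. Runs at least that long occur in 8.91% of the 32841 RefSeq windows. A second Kat2b start has a window with a longest run of 18 bases. Smarca1 has a run of 27 bases with no C (24.2% of windows hold one as long), and Sin3b a run of 45 bases with no G, which 2.80% of windows match or exceed. RefSeq windows matched 34 of the 41 genes by symbol, 41 windows in all, and not Mbd2, Smarce1, Mta3, Chd1, Baz1a, Chd3 and Rsf1. They were CpG-rich, with a median of 20 CpG against 6 for all windows. Their median A+T was 36%, against 47.6% for all windows, and their median longest run 19 bases against 21. A run is a description of letters and says nothing of binding.

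ISWI complexes space nucleosomes, and of the groups theirs had the most genes at an unadjusted p under 0.05. Of the 7 genes, 5 (71.4%) had an unadjusted p under 0.05, and in 4 (57.1%) the arrays did not overlap, 1 higher and 3 lower. These shares were 10.5% and 15.1% of all genes. Among genes above the median level, where 6 of the 7 lie, they were 16.5% and 20.0%. Smarca5, 1 of the 5, lies on chromosome 8, where 50.0% of genes above the median level had an unadjusted p under 0.05. Differences below 0 were found in 6 of the 7, with a median of -0.24, beside 10259 of all 19938 genes. Baz1b (-0.01) and Rsf1 (-0.02) are counted among the 6. The ISWI count below 0 was 5 after centring each array and 4 with array weights. Smarca5 encodes SNF2H, the main ISWI motor of ES cells. It read 9.30, 9.60 and 9.80 in WT and 9.19, 9.30 and 9.19 in Satb1-/- arrays. WT replicate 1 lay just under clone 1-2, so the groups overlapped, and the difference was -0.34 (SE 0.13, limma adjusted p = 0.387). The 20 nearest genes above the median level on chromosome 8, 10 on each side, had a median of -0.39, and 19 of them were below 0.

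Smarca1 encodes SNF2L, the second ISWI motor, better known in neurons. It read 4.50, 4.14 and 4.92 in WT replicates 1 to 3 and 4.05, 3.78 and 3.73 in clones 1-1, 1-2 and 2-1. All Satb1-/- arrays lay below the WT arrays, with WT replicate 2 and clone 1-1 the closest. The difference of -0.67 (SE 0.18, 95% interval -1.07 to -0.27, limma adjusted p = 0.132) amounts to 1.59-fold lower and was the largest of the 41 genes in size. Without single arrays it ran from -0.86 to -0.47, and it was called without WT replicate 2 (limma adjusted p = 0.0383). Its signal stood at the 32.5th percentile of all probe sets used, where array background compresses differences. Its X-chromosome neighbours had a median difference of -0.06.

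Of the larger ISWI partners, Bptf encodes the NURF subunit that reads histone H3 methylated at lysine 4. It read 9.10, 8.95 and 9.03 in WT and 8.84, 8.64 and 8.78 in Satb1-/- arrays, all lower, a difference of -0.27 (SE 0.11, limma adjusted p = 0.365). A second probe set of Bptf gave the same -0.27. Baz1a encodes ACF1, the partner of SNF2H in ACF and CHRAC, and read 6.77, 6.96 and 6.81 against 6.66, 6.50 and 6.66. The groups did not overlap, with a difference of -0.24 (SE 0.11, limma adjusted p = 0.467). Baz2a encodes TIP5, which with SNF2H forms the complex NoRC that silences ribosomal DNA, and it went the other way. Its WT arrays read 8.78, 8.94 and 8.73 and its Satb1-/- arrays 9.02, 9.21 and 9.10, all higher, a difference of 0.29 (SE 0.11, limma adjusted p = 0.339). Baz1b (WSTF) differed by -0.01 and Rsf1, the partner of SNF2H in RSF, by -0.02, both with overlapping arrays.

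NuRD joins a nucleosome motor to histone deacetylases. Of its 11 genes 6 had differences above 0 and 5 below, 3 (27.3%) had an unadjusted p under 0.05, and 3 (27.3%) did not overlap, 2 higher and 1 lower. Among genes above the median level, where all 11 lie, these shares were 16.5% and 20.0%. Chd4, or Mi-2beta, is the NuRD motor of ES cells. It read 9.92, 9.73 and 9.87 in WT and 10.16, 10.04 and 10.10 in Satb1-/- arrays. Every Satb1-/- array was higher, and the means lay 0.26 apart (SE 0.10, limma adjusted p = 0.393). The 20 neighbours of Chd4 on chromosome 6 had a median of 0.65, with 19 above 0, so the gene lay 0.39 below them. Chd3, the alternative motor Mi-2alpha, read 6.31, 6.15 and 6.49 against 6.77, 6.48 and 6.76. Clone 1-2 lay just under WT replicate 3, so the groups overlapped, with a difference of 0.35 (SE 0.13, limma adjusted p = 0.314), and the neighbours on chromosome 11 had a median of -0.00.

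Gatad2a and Gatad2b encode p66alpha and p66beta, which link the motor to the MBD and deacetylase parts. Gatad2a, on chromosome 8, read 8.45, 8.39 and 8.60 in WT and 8.26, 8.21 and 8.18 in Satb1-/- arrays, all lower. Its difference was -0.26 (SE 0.10, limma adjusted p = 0.396), beside a neighbour median of -0.35 with none of 20 above 0. Gatad2b differed by 0.09 with overlapping arrays. Mbd3, the subunit whose loss in ES cells blocks exit from self-renewal, read 8.23, 8.23 and 8.67 against 8.30, 8.24 and 8.22. WT replicate 3 was the only array that stood above the rest, and the difference of -0.12 (limma adjusted p = 0.868) became 0.02 without that replicate. Its alternative Mbd2, which binds methylated CpG, differed by -0.08.

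The MTA scaffolds differed in sign among themselves, all with overlapping arrays. Mta1 read 8.36, 8.57 and 8.13 against 8.0, 8.13 and 8.18, a difference of -0.25 (limma adjusted p = 0.573). Mta2 read 8.09, 7.98 and 8.40 against 8.38, 8.32 and 8.31, with WT replicate 3 above the Satb1-/- arrays and a difference of 0.18 (limma adjusted p = 0.737). Mta3 differed by 0.11, and a second Mta3 probe set gave -0.20. Rbbp4 and Rbbp7 encode histone-binding WD-repeat subunits shared with Sin3 and Polycomb complexes. Rbbp4 read 9.34, 9.46 and 9.44 against 9.47, 9.49 and 9.48, higher on every Satb1-/- array by a difference of only 0.07 (limma adjusted p = 0.917), and Rbbp7 differed by -0.12. Of the deacetylases of NuRD and Sin3, Hdac1 read 10.11, 10.08 and 10.43 against 10.41, 10.31 and 10.42, a difference of 0.17 (limma adjusted p = 0.740). Hdac2 read 9.34, 9.44 and 9.62 against 9.66, 9.44 and 9.77, a difference of 0.16 (limma adjusted p = 0.789).

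BAF complexes, the mammalian SWI/SNF family, evict and slide nucleosomes. None of the 12 BAF genes had an unadjusted p under 0.05, and none had separated arrays, beside 10.5% and 15.1% of all genes. Among genes above the median level, where 11 of the 12 lie, these shares were 16.5% and 20.0%. The BAF differences lay between -0.26 and 0.17. All 12 intervals stayed within a 1.5-fold change, as did those of 8003 of the 9969 genes above the median level. The esBAF motor Smarca4 (BRG1) read 8.57, 8.58 and 8.69 in WT and 8.62, 8.60 and 8.56 in Satb1-/- arrays. These values interleave, with a difference of -0.02 and a 95% interval of -0.24 to 0.20. Smarcc1 (BAF155), the esBAF scaffold, read 9.33, 9.35 and 9.31 against 9.40, 9.23 and 9.31, again -0.02. Arid1a (BAF250a), the DNA-binding subunit, read 8.25, 7.85 and 8.24 against 8.20, 8.0 and 8.07, also a difference of -0.02.

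The alternatives to these subunits gave values near 0 as well. Smarca2 (BRM), the alternative motor, differed by -0.00 at a signal in the 34.9th percentile, Smarcc2 (BAF170) by -0.02 and Arid1b by -0.12. Smarcd1 (BAF60a) had the largest BAF difference, with 8.34, 8.16 and 8.52 in WT and 8.16, 7.93 and 8.15 in Satb1-/- arrays. WT replicate 2 lay among the Satb1-/- arrays, and the difference of -0.26 had an interval of -0.54 to 0.02 (limma adjusted p = 0.537). Actl6a, the actin-like BAF53a of dividing cells, read 8.92, 9.08 and 9.28 against 9.29, 9.16 and 9.34, a difference of 0.17 (limma adjusted p = 0.728). Smarcb1, Smarcd2, Smarce1 and Pbrm1 differed by 0.14, 0.06, -0.13 and -0.10.

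Chd1, a motor of active promoters that ES cells need for open chromatin, read 8.88, 8.82 and 8.73 against 8.78, 8.52 and 8.69, a difference of -0.14 (limma adjusted p = 0.772). Ino80, the motor that names its complex, read 7.69, 7.92 and 8.01 against 7.71, 7.59 and 7.71. Only WT replicate 1 fell among its Satb1-/- arrays, and the difference was -0.20 (limma adjusted p = 0.640).

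Sin3a and Sin3b are alternative scaffolds of a deacetylase complex, and their arrays separated in opposite directions. Sin3a read 8.67, 8.80 and 8.71 in WT and 8.90, 8.87 and 8.88 in Satb1-/- arrays, a difference of 0.15 (SE 0.10, limma adjusted p = 0.695). Sin3b, on chromosome 8, read 7.01, 7.43 and 7.50 in WT and 6.98, 6.74 and 6.82 in Satb1-/- arrays. Clone 1-1 lay just under WT replicate 1, and the difference was -0.47 (SE 0.14, 95% interval -0.78 to -0.15, limma adjusted p = 0.192), or 1.38-fold lower. The 20 neighbours of Sin3b had a median of -0.33, 19 below 0. Without single arrays the difference ran from -0.62 to -0.37, and array weights called Sin3b (-0.52, limma adjusted p = 0.0365). Ctbp1 and Ctbp2 encode corepressors that bind a short peptide motif in many repressors, and CTBP1 is a known partner of SATB1. Ctbp1 read 7.89, 7.95 and 8.04 against 7.95, 7.95 and 7.98, a difference of 0.01. Ctbp2 read 8.64, 8.35 and 8.64 against 8.43, 8.22 and 8.50, a difference of -0.16 with overlapping arrays (limma adjusted p = 0.792).

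Among the histone acetyltransferases the pair Kat2a and Kat2b read higher on every Satb1-/- array, while Ep300 and Crebbp overlapped. Kat2b encodes PCAF, which is known to bind and acetylate SATB1. It read 5.76, 5.87 and 6.45 in WT replicates 1 to 3 and 6.58, 6.46 and 6.65 in clones 1-1, 1-2 and 2-1. WT replicate 3 and clone 1-2 were almost equal while WT replicates 1 and 2 lay well below. The difference was 0.54 (SE 0.17, 95% interval 0.17 to 0.91, limma adjusted p = 0.206), or 1.45-fold. Without single arrays it ran from 0.41 to 0.75. It was called without WT replicate 3 (limma adjusted p = 0.00564) and with array weights (0.64, limma adjusted p = 0.0217). Both fits called more of all genes than the main fit did (184 higher and 95 lower). The counts were 356 higher and 124 lower without WT replicate 3, and 373 and 235 with array weights. Kat2b lies on chromosome 17 like Satb1, with 4 measured genes between them, 1 of which was called higher. Those 4 genes had a median difference of 0.13, and the 20 neighbours of Kat2b a median of -0.03.

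Kat2a encodes GCN5, the acetyltransferase of the SAGA and ATAC coactivators. It read 8.14, 8.14 and 8.20 in WT and 8.31, 8.42 and 8.34 in Satb1-/- arrays, a difference of 0.20 (SE 0.10, limma adjusted p = 0.553). Ep300 and Crebbp are the paired acetyltransferases of enhancers. Ep300 read 8.29, 8.23 and 8.01 against 8.21, 8.03 and 8.26, a difference of -0.01, and Crebbp differed by -0.05. Pml, which builds the nuclear bodies that anchor SATB1-bound loops, read 8.18, 8.22 and 8.37 against 8.53, 8.41 and 8.50. All Satb1-/- arrays were higher, with a difference of 0.22 (SE 0.11, 95% interval -0.01 to 0.46, limma adjusted p = 0.506).

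Of the 41 genes 3 lie on chromosome 8 and 1, Chd4, on chromosome 6. The 3 genes on chromosome 8, Smarca5, Gatad2a and Sin3b, were all below 0 with a median of -0.34, and 2 did not overlap. On that chromosome 526 of the 570 genes above the median level were below 0, and 51.4% read lower without overlap. Outside chromosomes 6 and 8 stood 37 genes, of which 6 had an unadjusted p under 0.05 (16.2%) and 9 did not overlap (24.3%). The shares of all genes above the median level, 16.5% and 20.0%, include chromosomes 6 and 8 and so are no like background. Among such genes the shares were 34.6% and 36.6% on chromosome 6, and 50.0% and 52.6% on chromosome 8. The part of the chromosome-wide shift in the 3 differences was not tested.

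**Figure D3:**
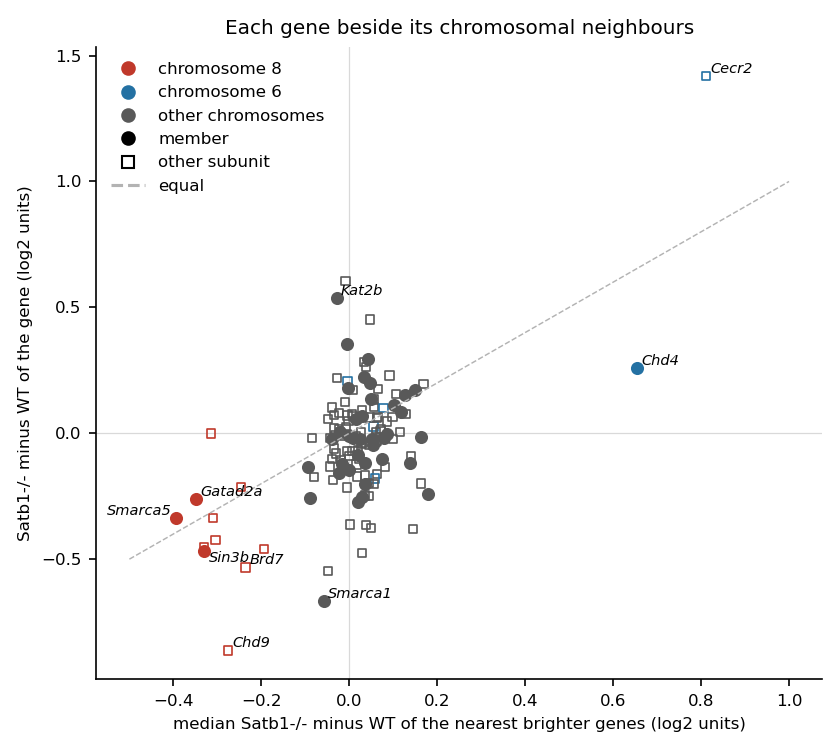
Difference of each gene (log2, vertical axis) against the median difference of its nearest genes above the median level, up to 10 on each side (log2, horizontal axis), filled for the 41 genes and open for other subunits, with a dashed line of equality and the colours red for chromosome 8 and blue for chromosome 6. The 3 chromosome 8 genes lie at the lower left, Chd4 on chromosome 6 at a neighbour median of 0.65, and Smarca1 and Kat2b lie away from neighbours near 0.

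Paralogues that replace each other in a complex were compared within arrays, as the change of 1 minus the change of the other, in 17 pairs. With 3 arrays against 3 the exact permutation test cannot go below p = 0.10, and the lowest p adjusted over the 17 pairs was 0.425. No pair passed, and in 4 the log2 difference between paralogues did not overlap between the groups, which is the smallest p of the test. No share over other pairs of genes was computed, so the count of 4 has no background. The change of Sin3a minus that of Sin3b was 0.62 (SE 0.14), Gatad2a minus Gatad2b -0.35 (SE 0.11), Rbbp4 minus Rbbp7 0.19 (SE 0.02) and Baz1a minus Baz1b -0.23 (SE 0.12). Sin3b and Gatad2a are the chromosome 8 genes of their pairs. The BAF motors Smarca4 and Smarca2 differed by -0.02, the scaffolds Smarcc1 and Smarcc2 by -0.00 and the NuRD motors Chd4 and Chd3 by -0.09, all with overlapping groups.

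**Figure D4:**
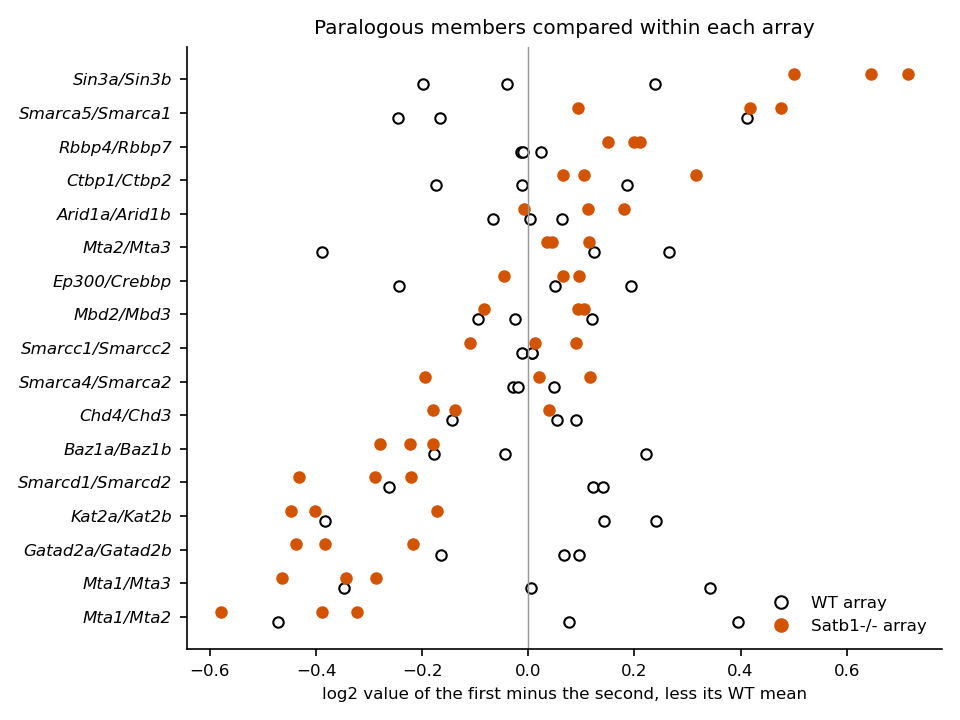
Log2 level of the first paralogue minus that of the second, less its WT mean (horizontal axis), for 17 pairs (rows), 1 point for each WT and Satb1-/- array. In 4 pairs, Sin3a/Sin3b, Gatad2a/Gatad2b, Rbbp4/Rbbp7 and Baz1a/Baz1b, the groups do not overlap.

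The other subunits of these and related complexes numbered 102 on a list, 95 of them measured, and 3 were called, 1 higher and 2 lower. Cecr2, the ISWI partner of the CERF complex on chromosome 6, read 7.45, 7.92 and 7.54 in WT and 9.05, 8.97 and 9.15 in Satb1-/- arrays. It rose by 1.42 (SE 0.14, limma adjusted p = 0.0008), beside a neighbour median of 0.81. Chd9, a chromodomain motor on chromosome 8, read 8.75, 8.81 and 8.33 against 7.64, 7.87 and 7.79 and fell by 0.86 (SE 0.14, limma adjusted p = 0.0143). Brd7, a bromodomain subunit of the PBAF form on chromosome 8, read 8.35, 8.42 and 8.51 against 7.93, 7.79 and 7.96 and fell by 0.53 (SE 0.11, limma adjusted p = 0.0375). The neighbours of Chd9 and Brd7 had medians of -0.28 and -0.24. The call of Chd9 was lost without WT replicate 1 (limma adjusted p = 0.0644) and without any 1 clone, and that of Brd7 without any 1 array but WT replicate 3 (limma adjusted p from 0.0574 to 0.198).

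Of these 95 subunits 22 (23.2%) did not overlap, 7 higher and 15 lower, and 16 (16.8%) had an unadjusted p under 0.05. The shares were 15.1% and 10.5% of all genes, and 20.0% and 16.5% of genes above the median level, where 87 of the 95 lie. All 8 on chromosome 8 were below 0 (7 after centring or with array weights), with a median of -0.44. Sall1 is counted among the 8 at only -0.0003. On that chromosome 526 of the 570 genes above the median level were below 0. Outside chromosomes 6 and 8 limma called 0 of 82, with 9 (11.0%) at an unadjusted p under 0.05. The shares of all genes, 1.40% and 10.5%, include chromosomes 6 and 8. Among those 82, Rcor2, a partner of the demethylase LSD1, read 7.42, 7.46 and 8.06 against 8.26, 8.14 and 8.35, a difference of 0.60 (limma adjusted p = 0.134). It was called without WT replicate 3 (limma adjusted p = 0.00362), a fit that called 356 of all genes higher, against 184 in the main fit. Ncoa2, a nuclear receptor coactivator, differed by 0.45 (limma adjusted p = 0.0809). Cited2, which binds p300 and CBP, differed by -0.55 (limma adjusted p = 0.200) and was called without WT replicate 2 (limma adjusted p = 0.0460).

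Precision was limited by the 3 arrays a group. In bulk RNA, less RNA per cell and fewer cells of a type cannot be told apart. The part of the keratin, pluripotency and feeder marker shifts, which move with the groups, was not tested in any of these differences. The trophectoderm list had no shared shift, since its keratin genes read lower while Eomes and Tfap2c read higher.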

How the data were processed

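The authors deposited 1 log2 expression value per probe set and array, made with RMA (background correction, normalization and probe summary), per the submitters' processing notes. The sources used here give neither the version and settings of RMA nor the array's genome build. Of 35557 probe sets 21789 had 1 gene symbol, 1621 several and 12147 none. Probe sets with several or none were not used. Arrays have no read depth.

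WT and Satb1-/- arrays were compared over all 19938 genes with limma 3.58.1 in R 4.3.3 (lmFit, eBayes, no covariate or filter), which was tested on simulated data. Groups overlap unless every array of 1 lies above every array of the other. RefSeq names, gene order and promoters are from GRCm38.p6. Array values are printed for genes called, main motors, defining subunits and SATB1 partners, and the 2 largest differences in each group, with others where groups separated. Other subunits named in the report are those called, the 3 largest differences each way, Hdac1 and Hdac2; those named further on were chosen after their values were seen. Members, lists and tests were chosen with earlier results of these data known. Alternatives were other probe-set rules, normalizations, array weights, thresholds and left-out arrays. Counts of separated arrays were added as an outcome after seeing the data.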

Additional observations from a re-analysis of the deposited data

How the results depend on the processing

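No call among the 41 genes was made with an adjusted p under 0.01, all probe sets tested singly, a trend in the prior, centred arrays, brighter genes only, genes outside chromosomes 6, 8 and Y, the mean of a gene's probe sets, clones 1-1 and 1-2 averaged or a second quantile normalization. Array weights called 1 higher (Kat2b, 0.64) and 1 lower (Sin3b, -0.52). Over the 6 fits that each lack an array, calls among them ranged from 0 to 1 higher and from 0 to 1 lower. Over 650 gene-by-setting values 609 kept direction and side of the threshold, 4 passed it and 37 changed sign, in 14 genes whose difference was at most 0.12 in size. Sign changes were Mta3 (-0.045, mean of probe sets), Smarca2 (0.020) and Ctbp1 (-0.025) after quantile normalization, Baz1b (0.0052), Smarca2 (0.017), Smarcc2 (0.0018) and Ep300 (0.0090) after centring, Baz1b (0.048), Rsf1 (0.010), Smarca2 (0.034), Arid1a (0.10) and Crebbp (0.035) with array weights, and Smarca2 (0.033) and Ep300 (0.014) with clones averaged. Without 1 array the ranges of those that changed sign were Mta3 -0.054 to 0.22, Smarcd2 -0.0050 to 0.096, Arid1a -0.15 to 0.044, Ctbp1 -0.030 to 0.046, Ep300 -0.095 to 0.059, Baz1b -0.070 to 0.058, Rsf1 -0.092 to 0.037, Mbd2 -0.17 to 0.014, Mbd3 -0.20 to 0.024, Smarca4 -0.041 to 0.016, Smarca2 -0.073 to 0.061, Smarcc1 -0.061 to 0.021, Crebbp -0.12 to 0.035 and Smarcc2 -0.052 to 0.032. Non-overlapping genes were 4 higher after centring and 9 lower after quantile normalization, and 7 to 12 higher and 5 to 10 lower without 1 array, in all 29.3% to 48.8% of the 41 genes beside 21.8% to 32.1% of all genes and 24.9% to 38.4% of those above the median level. The other subunits called were 3 higher and 3 lower with array weights, 1 lower after centring, 3 lower after quantile normalization or with brighter genes only, 0 lower at 0.01 or with clones averaged, and 0 in either direction outside chromosomes 6, 8 and Y, a setting that removes all 3 called subunits. Without 1 array they were 1 to 2 higher and 0 to 2 lower. Satb1 (adjusted p = 0.0871), Brd7 (0.118) after centring and Satb1 (0.118), Brd7 (0.155) and Chd9 (0.0721) with clones averaged missed the threshold. All genes called numbered 184 higher and 95 lower, against 373 and 235 with array weights, 116 and 30 after centring, 236 and 148 after quantile normalization, 90 and 27 with clones averaged, 86 and 23 at 0.01, 74 and 21 outside chromosomes 6, 8 and Y, and 74 to 356 and 19 to 124 without 1 array. Separated pairs numbered 4 to 8 without 1 array, again with no share over other pairs of genes beside them. The cause of these changes was not tested. No paired analysis was possible because the groups share no replicate numbers. Signal over background limits dim genes such as Smarca1 and Smarca2.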

Other observations

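Chd7, a chromodomain motor of enhancers that was not among the 41 genes, had 30 probe sets on the array. All 30 read lower in Satb1-/- cells, with a median difference of -0.35 and a range of -0.67 to -0.13. The probe set used for the gene read 9.47, 9.03 and 8.96 in WT and 8.69, 8.69 and 8.64 in Satb1-/- arrays, a difference of -0.47 (SE 0.14) that did not pass the threshold (limma adjusted p = 0.168). The probe sets share the same arrays and are not replicates. Zmynd8, a zinc-finger partner of NuRD, read 7.31, 7.22 and 7.14 against 6.97, 6.70 and 6.88, without overlap and without a call (limma adjusted p = 0.180). Ing1, a subunit of Sin3 deacetylase complexes on chromosome 8, read 7.15, 7.23 and 7.18 against 6.70, 6.78 and 6.70 and just missed the threshold (-0.46, limma adjusted p = 0.0538). These genes were chosen after their values were seen.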
